A study of Mus musculus with 10 samples.

Results

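10 genes that govern whether a myoblast leaves the cell cycle were followed by RNA-sequencing in C2C12 cells, a mouse myoblast line that withdraws from division and fuses into myotubes when serum is reduced. They were taken by gene symbol from the authors' table of 55359 genes and comprised the CDK inhibitors *Cdkn1a*, *Cdkn1b*, *Cdkn1c* and *Cdkn2c*, the pocket protein gene *Rb1*, the D cyclins *Ccnd1*, *Ccnd2* and *Ccnd3*, and the kinases *Cdk4* and *Cdk6*. All 10 were in the table, and all 10 passed the filter on low values, a mean of at least 0.5 FPKM (fragments scaled to transcript length and library size) over the libraries. Cells had received a control siRNA (si-Control, 5 libraries) or an siRNA against *Fndc1* (si-*Fndc1*, 5 libraries), a gene for a secreted fibronectin type III domain protein. Both groups were C2C12 cells given 100 nM siRNA and, according to the labels and the methods of the study, differentiated for 4 days in 2% horse serum, whereas the text describing the series gives another time point. The methods of the study speak of 4 libraries without saying which, and all 10 deposited ones were used. The sources do not say whether the 5 libraries of a group came from separate cultures, so that p-values measure the spread between these libraries.

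As background, D cyclins join CDK4 or CDK6 into kinases that phosphorylate RB, which then releases E2F transcription factors and lets the cell enter S phase. p18, encoded by *Cdkn2c*, binds CDK4 and CDK6 directly, whereas the CIP/KIP proteins p21 (*Cdkn1a*), p27 (*Cdkn1b*) and p57 (*Cdkn1c*) bind cyclin-CDK complexes. In differentiating muscle, p21 and p57 accumulate, RB holds E2F target genes silent, and cyclin D3 is the D cyclin that stays high in myotubes while cyclin D1 declines.

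The si-Control libraries held 66771605 to 75995168 counts each, and the si-*Fndc1* libraries 56332844 to 72839369. *Fndc1* itself was at 27.8 ± 2.04 FPKM (SD, n = 5) in si-Control and 20.9 ± 1.70 (n = 5) in si-*Fndc1*, with no overlap (log2 fold change -0.40, adjusted p = 0.000934, edgeR), so that most of the transcript remained. With the GC and length offset its log2 fold change was -0.23 (adjusted p = 0.00845). Of 10 markers of myoblasts and myotubes, all were expressed, and their summed FPKM ranged from 4090 to 4560 across si-Control libraries and from 3850 to 4590 across si-*Fndc1* libraries. Among them *Ckm*, the muscle creatine kinase (log2 fold change 0.39), *Mymk*, the fusion protein myomaker (0.26), and *Myod1* (0.16) rose and 7 did not pass, among them *Myog*, the myogenin gene (-0.12), and *Myh3*, the embryonic myosin heavy chain gene (-0.17). With the GC and length offset described below, 3 of the 10 rose, *Mymk* no longer among them (0.21, adjusted p = 0.103), and *Myog* (-0.16, adjusted p = 0.033) and *Myf5* (-0.21, adjusted p = 0.0189) fell. Of all tested genes, 17.3% rose and 17.2% fell without the offset (adjusted p under 0.05, edgeR). With it, 22.8% passed in either direction. Liver transcripts moved with the groups: all 9 tested rose, and their sum reached at most 5.37 FPKM in si-Control libraries, while it lay between 43.8 and 162 FPKM in si-*Fndc1* libraries. Of 5 blood and endothelial transcripts, *Ptprc* and *Cdh5* were listed at 0.0001, the authors' value for no read, in every library, whereas *Hba-a1*, a haemoglobin gene, was at 1.01 ± 0.483 FPKM in si-Control and 1.35 ± 0.292 in si-*Fndc1* (n = 5 each, adjusted p = 0.352) and *Hbb-bs*, another, was below the filter with means of 0.00317 and 0.33 FPKM. The sum of these 5 ranged from 0.422 to 1.54 FPKM across si-Control libraries and from 1.27 to 2.36 across si-*Fndc1* libraries. The 5 adipocyte transcripts summed to at most 0.0201 FPKM. The part of the liver and blood transcripts in the results below was not tested.

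Sequence upstream of the start sites is shown for 4 of the genes, namely the 3 genes with a match to the E-box, the letters that bHLH factors such as MYOD1 and MYC recognise, and *Ccnd3*, the gene with the largest fold change. RefSeq windows (GRCm38.p6) were at hand for 6 of the 10 genes, with 9 start sites in all, and the 250 bases before each start were read on the gene's own strand. Capitals mark every match to the E-box CANNTG, which reads the same on both strands.
Cdkn1a, chr17:29093519-29093768, + strand: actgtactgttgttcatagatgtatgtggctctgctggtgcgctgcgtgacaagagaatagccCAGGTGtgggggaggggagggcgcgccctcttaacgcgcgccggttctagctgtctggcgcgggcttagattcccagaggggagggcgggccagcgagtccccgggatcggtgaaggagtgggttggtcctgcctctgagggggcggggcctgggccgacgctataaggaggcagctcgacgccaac
Ccnd3, chr17:47593217-47593466, + strand: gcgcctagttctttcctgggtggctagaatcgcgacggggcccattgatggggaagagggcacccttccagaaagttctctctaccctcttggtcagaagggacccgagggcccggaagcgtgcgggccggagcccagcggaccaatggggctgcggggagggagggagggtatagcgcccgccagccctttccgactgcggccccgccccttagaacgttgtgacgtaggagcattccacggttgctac
Cdk4, chr10:127063285-127063534, + strand: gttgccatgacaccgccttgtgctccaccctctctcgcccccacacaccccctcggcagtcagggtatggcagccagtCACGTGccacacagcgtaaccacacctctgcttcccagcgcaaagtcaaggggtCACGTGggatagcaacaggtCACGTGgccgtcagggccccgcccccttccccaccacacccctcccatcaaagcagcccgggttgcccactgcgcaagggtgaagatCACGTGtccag
Cdk6, chr5:3343643-3343892, + strand: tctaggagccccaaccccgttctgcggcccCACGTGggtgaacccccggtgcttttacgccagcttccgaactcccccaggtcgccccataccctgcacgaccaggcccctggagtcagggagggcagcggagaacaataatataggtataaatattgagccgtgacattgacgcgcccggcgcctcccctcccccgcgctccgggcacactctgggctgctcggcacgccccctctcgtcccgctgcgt
The *Cdk4* window held 4 E-boxes, and all 4 had the letters CACGTG, the form that MYC and its partner MAX bind. They began 172, 118, 98 and 11 bases before the start. Among 32851 windows of the same length, 7 (0.0213%) held at least 4 such matches, a count made after the *Cdk4* window had been seen. *Cdk6* had 1 CACGTG, 220 bases before its start, and the *Cdkn1a* window shown had 1 E-box of other letters, 187 bases before its start. The *Ccnd3* window shown held no match. In all, 3 of the 9 windows held an E-box, against 66.2% of the 32851. CAGCTG, the form MYOD1 prefers, was in 0 of the 9 and in 13.0% of all windows. A loose form of the E2F consensus, TTTNNCGC with any base at N (either strand), was in 1 of the 9 and in 4.28%. The GC box GGGCGG (either strand) was in 6 of the 9 and in 32.7%. CACGTG and CAGCTG are special cases of CANNTG and overlap it. These matches describe letters and not bound sites.

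In the comparison of si-*Fndc1* with si-Control, which asks what follows the lowering of *Fndc1* transcript in differentiating cells, the 10 genes did not move one way. *Cdkn1b* and *Rb1* rose, *Cdkn1a*, *Ccnd3* and *Cdk6* fell, and *Cdkn1c*, *Cdkn2c*, *Ccnd1*, *Ccnd2* and *Cdk4* did not pass the test. The 5 of 10 that passed (adjusted p under 0.05, edgeR) stand beside 34.4% of the 13548 genes tested, of which 17.3% rose and 17.2% fell. For 4 of the 10 genes the groups were apart, against 25.1% of all tested genes (in CPM, counts scaled to the library size). The median log2 fold change was -0.044 over the 10 genes and 0.004 over all tested genes, and the median size was 0.209 against 0.173. With so few genes, these shares set nothing apart from the rest of the transcriptome. Since these are bulk samples, fewer cells of a type and less RNA per cell cannot be told apart.

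**Figure D1:**
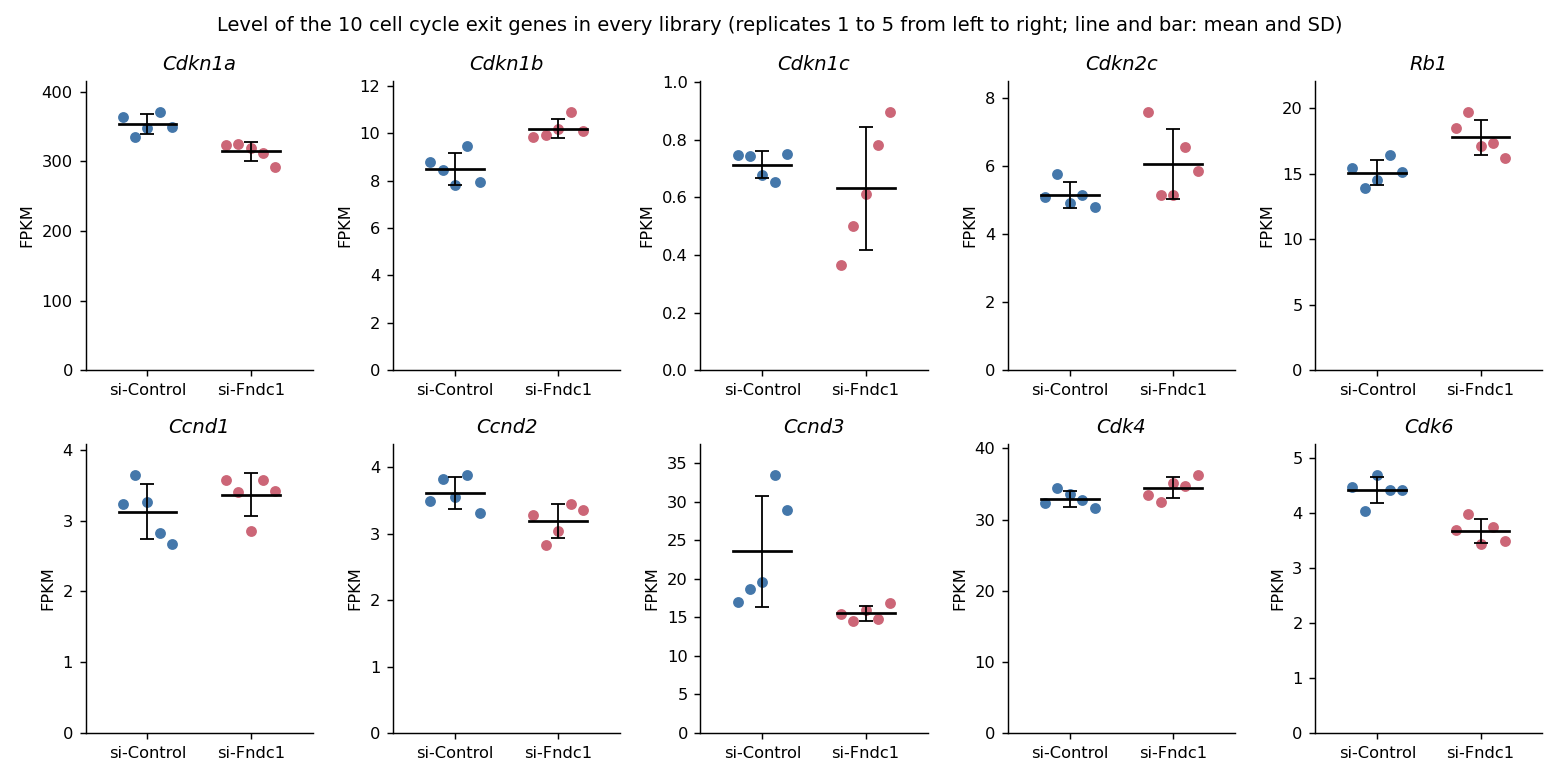
FPKM of each of the 10 genes (vertical axes, each starting at 0) in the 5 si-Control (blue) and 5 si-*Fndc1* (red) libraries, replicates 1 to 5 from left to right, with the mean and SD in black. The groups do not overlap for *Cdkn1a*, *Cdkn1b*, *Ccnd3* and *Cdk6*, and *Ccnd3* in si-Control falls apart into 3 libraries at 17.0 to 19.6 FPKM and 2 at 28.9 and 33.5.

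Fold changes across the transcriptome followed base composition (Spearman's rho of the log2 fold change with GC content -0.523 across 11185 genes, which are not independent replicates). The transcripts of the 2 genes that rose had 43.1% (*Cdkn1b*) and 41.2% GC (*Rb1*), and those of the 3 that fell had 54.6% (*Cdkn1a*), 58.4% (*Ccnd3*) and 49.2% (*Cdk6*). Of the 5 that did not pass, *Cdkn2c* (58.0%), *Cdk4* (53.3%) and *Ccnd1* (50.9%) had log2 fold changes above 0, and *Cdkn1c* (59.7%) and *Ccnd2* (48.6%) below 0. The trend with GC content and length was then fitted in each library and used as an offset. *Cdkn1b*, *Rb1*, *Cdkn1a*, *Ccnd3* and *Cdk6*, which had passed without the offset, all failed to pass with it. With the offset *Cdkn2c* and *Cdk4* rose, 2 of 10 genes beside 22.8% of the 11185 genes with a GC content. No gene of the 10 changed direction. Whether the trend arose in the cells or in the libraries was not tested, and values with the offset are given for each gene. Gene positions are as the authors' table lists them, and the table names no genome build.

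**Figure D2:**
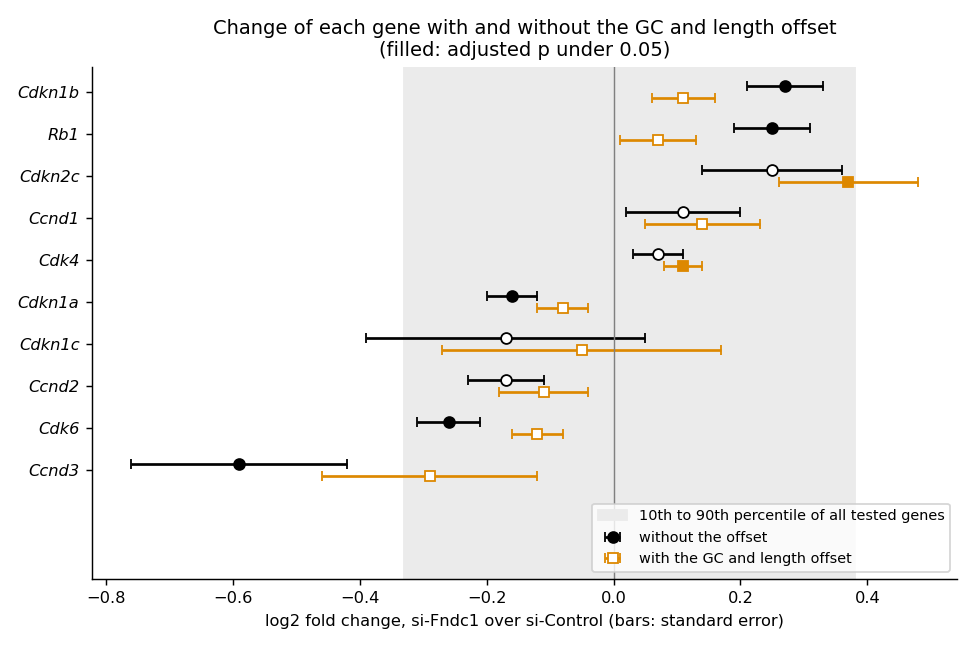
Log2 fold change of si-*Fndc1* over si-Control (horizontal axis) for the 10 genes, without (black circles) and with the GC and length offset (orange squares). Bars are standard errors, filled symbols have an adjusted p under 0.05, and the grey band spans the 10th to 90th percentile of all tested genes (-0.33 to 0.38). The band is that of the fit without the offset, in which *Ccnd3* lies outside it. No band is shown for values with the offset.

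*Cdkn1a* (ENSMUSG00000023067, chr17:29309950-29319701), whose product p21 is induced by MYOD1 and p53, was by far the most abundant of the 10 genes. Its level in si-Control replicates 1 to 5 was 364, 335, 348, 371 and 350 FPKM, and in si-*Fndc1* replicates 1 to 5 it was 323, 325, 320, 312 and 292. The 2 groups stood apart, with the highest si-*Fndc1* value under the lowest si-Control value, although the fall was small. The mean went from 354 ± 14.3 to 315 ± 13.4 FPKM (SD, n = 5 each, exact permutation p = 0.00794, two-sided, the smallest that 5 against 5 can give), and the log2 fold change was -0.16 ± 0.04 (SE, adjusted p = 0.0107). With the GC and length offset it was -0.08 (adjusted p = 0.178), with quantile-normalized FPKM in limma -0.36 (adjusted p = 0.000233), and without si-Control replicates 4 and 5 it was -0.15 (adjusted p = 0.0604). A gene annotated on the opposite strand inside *Cdkn1a*, *1700023B13Rik*, fell as well (log2 fold change -0.58, adjusted p = 0.0098), and the sources do not say whether counting used the strand.

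*Cdkn1b* (ENSMUSG00000003031, chr6:134897364-134902476) encodes p27, the inhibitor that holds quiescent cells in G1. It was at 8.79, 8.46, 7.81, 9.46 and 7.95 FPKM in si-Control and at 9.86, 9.94, 10.2, 10.9 and 10.1 FPKM in si-*Fndc1*. All 5 si-*Fndc1* libraries were above the highest si-Control library. The mean rose from 8.50 ± 0.67 to 10.2 ± 0.405 FPKM (n = 5 each, exact permutation p = 0.00794), and the log2 fold change was 0.27 ± 0.06 (SE, adjusted p = 0.0038), and 0.11 with the offset (adjusted p = 0.19). Because *Cdkn1a* was so much higher, *Cdkn1b* made up 2.34% ± 0.133 of the summed CIP/KIP FPKM in si-Control and 3.14% ± 0.19 in si-*Fndc1*, and these shares did not overlap. *Cdkn1a* held 97.5% and 96.7%. Counted per length of the reference transcript instead, *Cdkn1b* made up 1.27% in si-Control and 1.71% in si-*Fndc1*, also without overlap.

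*Cdkn1c* (ENSMUSG00000037664, chr7:143012076-143014787), the imprinted gene of p57, was the lowest of the 10 genes, with 109 to 131 counts per si-Control library and 59 to 129 per si-*Fndc1* library. In si-Control it was at 0.748, 0.742, 0.676, 0.653 and 0.749 FPKM. In si-*Fndc1* it was at 0.364, 0.501, 0.611, 0.783 and 0.896 FPKM, 3 libraries below the si-Control range and 2 above it. The coefficient of variation was 6.42% in si-Control and 33.8% in si-*Fndc1*, a spread whose difference was not tested. The log2 fold change was -0.17, with an interval of 2 standard errors on each side from -0.62 to 0.27 (adjusted p = 0.593). With the offset it was -0.05 (adjusted p = 0.893).

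*Cdkn2c* (ENSMUSG00000028551, chr4:109518073-109524386), the p18 gene, is the INK4 inhibitor that muscle cells raise on differentiation. It was at 5.10, 5.78, 4.91, 5.15 and 4.80 FPKM in si-Control and at 7.60, 5.17, 5.17, 6.57 and 5.86 FPKM in si-*Fndc1*. In si-*Fndc1*, 3 libraries lay above the si-Control range and 2 within it. The log2 fold change of 0.25 ± 0.11 did not pass (adjusted p = 0.102, exact permutation p = 0.0556 for FPKM), and without si-*Fndc1* replicate 1 it was 0.15 (adjusted p = 0.217). With the offset and all libraries it was 0.37 and passed (adjusted p = 0.0314).

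*Rb1* (ENSMUSG00000022105, chr14:73421113-73563262) encodes RB, the pocket protein on which the D cyclin kinases act. Its level was 15.4, 13.9, 14.5, 16.4 and 15.1 FPKM in si-Control against 18.5, 19.7, 17.1, 17.3 and 16.2 FPKM in si-*Fndc1*. The groups met in 1 library, since si-*Fndc1* replicate 5 lay just below si-Control replicate 4. The mean rose from 15.1 ± 0.954 to 17.8 ± 1.36 FPKM (n = 5 each, exact permutation p = 0.0159) and the log2 fold change was 0.25 ± 0.06 (adjusted p = 0.00845), against 0.07 with the offset (adjusted p = 0.462). *Lpar6*, a receptor gene on the opposite strand within the span of *Rb1*, also rose (log2 fold change 0.40, adjusted p = 0.0221).

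*Ccnd3* (ENSMUSG00000034165, chr17:47815976-47910614) had the largest fold change of the 10 genes and the least even si-Control group. It was at 17.0, 18.7, 19.6, 33.5 and 28.9 FPKM in si-Control replicates 1 to 5 and at 15.4, 14.5, 16.0, 14.8 and 16.9 FPKM in si-*Fndc1*. All si-*Fndc1* libraries were below all si-Control libraries, but replicate 5 of si-*Fndc1* and replicate 1 of si-Control were nearly level. The mean fell from 23.6 ± 7.24 to 15.5 ± 0.955 FPKM (n = 5 each, exact permutation p = 0.00794) and the log2 fold change was -0.59 ± 0.17 (adjusted p = 0.0203), or -0.29 with the offset (adjusted p = 0.237). si-Control replicates 4 and 5 averaged 1.69 times the mean of replicates 1 to 3, which was 18.5 FPKM. Without both the log2 fold change was -0.25 (adjusted p = 0.0183), an alternative chosen after these levels had been seen, and without replicate 5 alone it was -0.51 (adjusted p = 0.0501).

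The nearest genes on chromosome 17 were not higher in those 2 libraries in the way *Ccnd3* was. *Bysl*, a ribosome assembly gene whose 3' end overlaps *Ccnd3* on the opposite strand by 359 bases, was at 38.4 to 40.9 CPM in the 5 si-Control libraries. *Med20*, a Mediator subunit gene, was at 33.9 to 37.2 CPM, and *Taf8*, a TFIID subunit gene, was at 17.4 to 21.2 CPM, while *Ccnd3* ranged from 167 to 326 CPM. *Usp49*, a histone deubiquitinase gene further out, varied widely at low level, from 1.85 to 14.7 CPM, and was highest in si-Control replicates 2 and 3. None of these 4 neighbours passed the test (adjusted p = 0.0781 to 0.59).

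**Figure D3:**
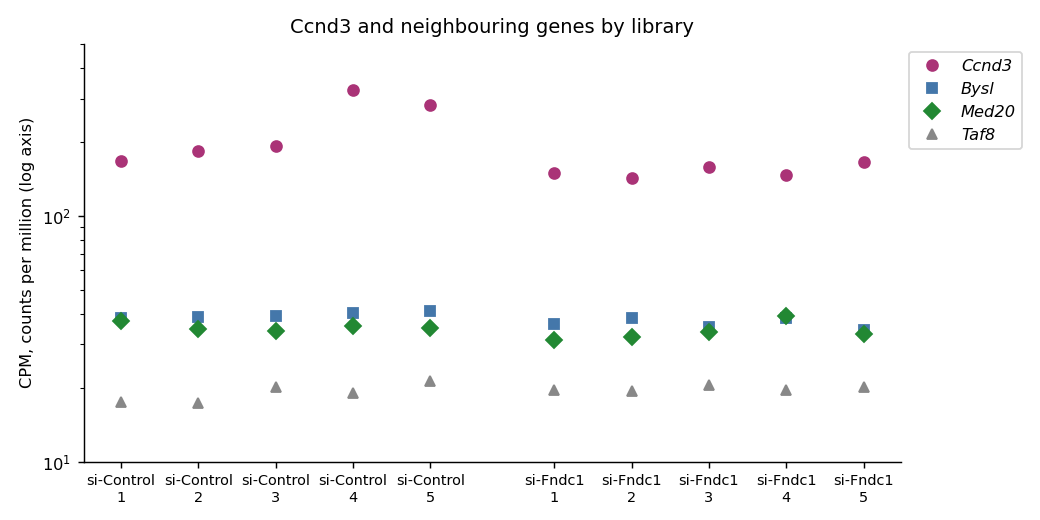
CPM (vertical axis, log scale) of *Ccnd3* and 3 neighbouring genes in each of the 10 libraries. *Ccnd3* stands at 326 and 283 in si-Control replicates 4 and 5 and at 143 to 192 in the other libraries, while *Bysl*, *Med20* and *Taf8* stay between 17.4 and 40.9.

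*Ccnd2* (ENSMUSG00000000184, chr6:127102125-127129156), the D cyclin gene linked to FOXO and growth factor signaling, was at 3.50, 3.83, 3.56, 3.89 and 3.31 FPKM in si-Control and at 3.28, 2.83, 3.04, 3.45 and 3.36 FPKM in si-*Fndc1*. The 5 si-*Fndc1* values lay below the si-Control mean, and 3 lay below its range. The log2 fold change of -0.17 ± 0.06 missed the threshold (adjusted p = 0.0602). It passed in DESeq2 (adjusted p = 0.0414), and it also passed when si-Control replicate 5 (-0.20, adjusted p = 0.0414) or si-*Fndc1* replicate 4 (-0.20, adjusted p = 0.0436) was left out, and with the offset it was -0.11 (adjusted p = 0.30).

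*Ccnd1* (ENSMUSG00000070348, chr7:144483668-144493662), the mitogen-induced D cyclin gene, was at 3.23, 3.65, 3.27, 2.82 and 2.67 FPKM in si-Control and at 3.58, 3.41, 2.85, 3.58 and 3.42 FPKM in si-*Fndc1*. The groups overlapped, and no si-*Fndc1* library exceeded the si-Control maximum. The log2 fold change was 0.11 (interval of 2 standard errors on each side -0.07 to 0.30, adjusted p = 0.382). With the offset it was 0.14 (adjusted p = 0.316). The lowest si-Control values were those of replicates 4 and 5, the libraries in which *Ccnd3* was highest.

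Summed over the 3 genes, D cyclin transcript amounted to 30.3 ± 6.97 FPKM in si-Control (23.8 to 40.3) and 22.1 ± 1.06 FPKM in si-*Fndc1* (20.8 to 23.7). The groups did not overlap but nearly met, at 23.7 and 23.8. The si-Control mean includes replicates 4 and 5, in which *Ccnd3* was at 33.5 and 28.9 FPKM, against 17.0 to 19.6 in replicates 1 to 3. *Ccnd3* made up 76.7% ± 5.94 of the sum in si-Control and 70.3% ± 2.01 in si-*Fndc1*, *Ccnd2* 12.4% and 14.4%, and *Ccnd1* 10.9% and 15.3%. The ranges of all 3 shares overlapped. The length by which the FPKM values divide was worked out from the counts and FPKM. For *Ccnd3* it was 9762 bases, against 2113 bases for its reference transcript. Counted per reference transcript instead, *Ccnd3* made up 90.2% in si-Control and 87.1% in si-*Fndc1*.

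**Figure D4:**
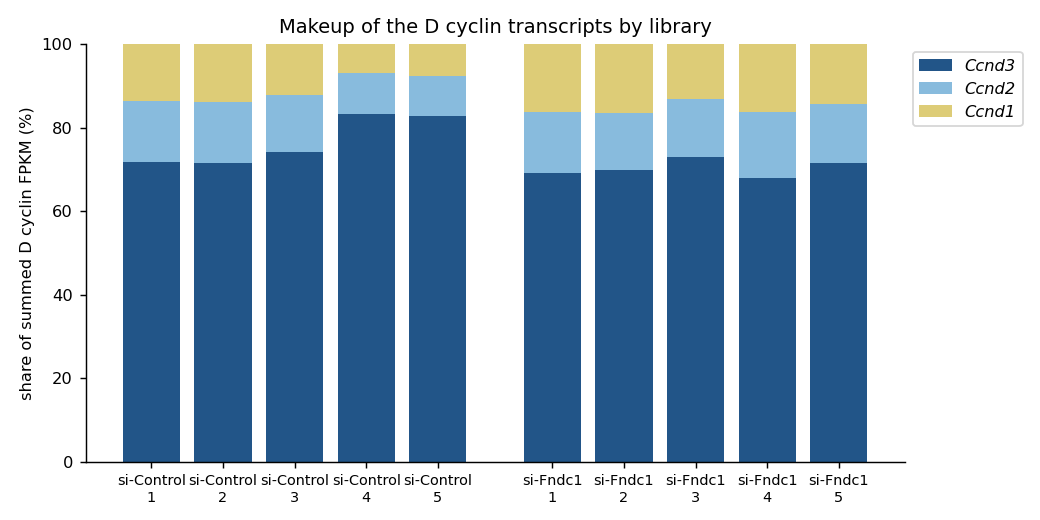
Share of *Ccnd3*, *Ccnd2* and *Ccnd1* in their summed FPKM (vertical axis, percent) in each of the 10 libraries. *Ccnd3* takes 83.3% and 82.8% in si-Control replicates 4 and 5 and 67.8% to 74.2% in the other 8 libraries.

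*Cdk4* (ENSMUSG00000006728, chr10:126899403-126903789) encodes a D cyclin kinase, and its transcript was more abundant than that of *Cdk6*. It was at 32.3, 34.4, 33.6, 32.7 and 31.6 FPKM in si-Control and at 33.5, 32.5, 35.2, 34.7 and 36.3 FPKM in si-*Fndc1*. The groups overlapped, with 3 si-*Fndc1* libraries above the si-Control range. The log2 fold change of 0.07 ± 0.04 did not pass (adjusted p = 0.154), whereas with the offset it was 0.11 (adjusted p = 0.0322). *Tspan31*, which overlaps the end of *Cdk4* on the opposite strand by 641 bases, fell (log2 fold change -0.11, adjusted p = 0.0372).

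*Cdk6* (ENSMUSG00000040274, chr5:3391485-3572225), whose kinase is known to restrain differentiation in several lineages, was at 4.48, 4.04, 4.70, 4.42 and 4.43 FPKM in si-Control and at 3.70, 3.99, 3.43, 3.75 and 3.50 FPKM in si-*Fndc1*. No si-*Fndc1* library reached the si-Control range, although si-*Fndc1* replicate 2 came close to si-Control replicate 2. The mean fell from 4.41 ± 0.237 to 3.67 ± 0.223 FPKM (n = 5 each, exact permutation p = 0.00794), and the log2 fold change was -0.26 ± 0.05 (SE, adjusted p = 0.0032), against -0.12 with the offset (adjusted p = 0.0549). *Cdk6* made up 11.8% ± 0.754 of the summed *Cdk4* and *Cdk6* FPKM in si-Control and 9.66% ± 0.879 in si-*Fndc1*, with overlap. Counted per reference transcript instead, *Cdk6* made up 24.1% and 20.2%, also with overlap.

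By mean FPKM in si-Control, the order of levels was *Cdkn1a*, *Cdk4*, *Ccnd3*, *Rb1*, *Cdkn1b*, *Cdkn2c*, *Cdk6*, *Ccnd2*, *Ccnd1* and *Cdkn1c*. The ranges of *Cdk4* and *Ccnd3* overlapped, as did those of *Ccnd2* and *Ccnd1*, and the other neighbours in the order were apart. Per kilobase of reference transcript, *Ccnd3* stood in place 2 and *Cdk6* in place 5. Over the 10 libraries, in log2 CPM, *Cdkn1a* went with *Cdk6* (Pearson's r 0.849) and against *Cdk4* (-0.796). *Cdk6* went against *Cdk4* (-0.792) and *Cdkn1b* (-0.787), and *Cdkn1b* went with *Rb1* (0.775). They were the largest in size among all pairs of the 10 genes. These values share libraries and include the difference between the groups, and they are given as a description. Of all tested genes with a symbol, *Fat4* was among the 2 closest to *Cdk6* by Pearson's r (0.975, Spearman's rho 0.939). Those closest to *Cdkn1b* were *Eda2r* (0.979, 0.952) and *Prmt3* (0.969, 0.988), and those closest to *Rb1* were *Zbtb41* (0.984, 0.976) and *Gm12940* (0.979, 0.988).

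The rest of the pathway was read from 9 lists of genes, of which 85 genes were tested and 32 passed, against 34.4% of all tested genes. The counts of single lists that follow stand beside 17.3% of all tested genes that rose and 17.2% that fell. Downstream of RB, 3 of the 10 E2F factors and DP partners fell and 7 did not pass. *E2f4*, the repressor E2F of quiescent cells, went from 26.6 ± 2.22 to 20.1 ± 0.712 FPKM (n = 5 each, log2 fold change -0.40, adjusted p = 0.000351) and remained past the threshold with the offset (-0.34, adjusted p = 0.00308). *E2f1* (-0.21, adjusted p = 0.0137) and *E2f2* (-0.17, adjusted p = 0.0445), both activators of S phase genes, fell, and with the offset *E2f1* was at -0.04 and *E2f2* at 0.01. Of the other pocket protein genes, *Rbl1* (p107) had a log2 fold change of 0.01 and *Rbl2* (p130) of -0.01, and *Cdkn2d* (p19) was at -0.31 (adjusted p = 0.351). In edgeR and in DESeq2, 0 of these 3 passed and 0 had an unadjusted p under 0.05. *Cdkn2a* and *Cdkn2b* were listed at 0.0001 FPKM in every library.

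Cyclins of the later phases were at low levels. Of 9 tested cyclin E, A and B genes with their kinases and CDC25 phosphatases, 4 rose and 5 did not pass. *Ccna2*, the S phase cyclin, went from 4.00 ± 0.292 to 5.42 ± 0.338 FPKM (log2 fold change 0.44, adjusted p = 0.000498), *Ccne2* from 1.40 ± 0.231 to 1.97 ± 0.158 FPKM (0.50, adjusted p = 0.00759) and *Cdk1*, the mitotic kinase, from 2.62 ± 0.27 to 3.47 ± 0.517 FPKM (0.41, adjusted p = 0.0137). With the offset *Ccna2* (0.34) and *Cdk1* (0.35) still passed, and *Ccne2* did not (0.17, adjusted p = 0.309). *Cdc25c* was below the filter. Of 11 replication and proliferation genes, *Mcm4*, a subunit of the replicative helicase (0.30, adjusted p = 0.00683), and *Rrm2*, a ribonucleotide reductase subunit (0.15, adjusted p = 0.0183), rose and 9 did not pass, among them *Tyms* (0.22, adjusted p = 0.148). With the offset neither *Mcm4* (0.16, adjusted p = 0.134) nor *Rrm2* (-0.02, adjusted p = 0.835) passed, and 1 gene of this list, the sliding clamp gene *Pcna*, fell (-0.27, adjusted p = 0.00763). Of the 6 tested genes of the MuvB core, B-Myb and FoxM1, *Rbbp4*, a histone chaperone, rose (0.25, adjusted p = 0.000111, and 0.17 with the offset, adjusted p = 0.000878), while *Lin37* (-0.16) and *Lin52* (0.37) did not pass.

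*Cdkn1a* is a target of p53, and of 14 genes of p53 and its other targets and regulators 5 fell, 1 rose and 8 did not pass. *Phlda3*, an inhibitor of AKT, went from 106 ± 2.34 to 79.8 ± 4.87 FPKM (log2 fold change -0.40, adjusted p = 8.35e-05), and *Bbc3*, the apoptosis gene PUMA, from 7.53 ± 0.536 to 5.36 ± 0.314 FPKM (-0.48, adjusted p = 0.000328). Both passed with the offset (-0.26 and -0.25). *Ccng1*, the cyclin G1 gene, rose (0.28, adjusted p = 0.00103), and with the offset was at 0.03. Among 13 genes of transcription factors that act on these genes, 6 fell and 2 rose, a median of -0.16. *Jun*, which drives cyclin D1 (-0.28, adjusted p = 0.000426), *Klf4*, an activator of *Cdkn1a* (-0.23, adjusted p = 0.0014), and *Sp1*, which binds GC boxes (-0.21, adjusted p = 0.00449), all fell, and all 3 passed with the offset.

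At the level of protein turnover and assembly, 3 of 14 genes rose and 3 fell. *Skp1* (log2 fold change 0.39, adjusted p = 4.36e-05) and *Cul1* (0.22, adjusted p = 0.000304), the common subunits of SCF ubiquitin ligases, which include the ligase that degrades p27, rose. *Rnf123*, a subunit of the other p27 ligase, fell from 6.37 ± 0.222 to 4.90 ± 0.296 FPKM (-0.37, adjusted p = 0.00021). With the offset *Skp1* passed (0.16), and *Cul1* (0.07) and *Rnf123* (-0.14, adjusted p = 0.0549) did not. Of 5 genes of CDK activation and assembly, the chaperones *Cdc37* (-0.17, adjusted p = 0.00429) and *Hsp90ab1* (-0.17, adjusted p = 0.0295), which fold CDK4 and CDK6, fell, and *Ccnh*, the cyclin of the CDK-activating kinase, was at 0.31 (adjusted p = 0.0517). With the offset 2 of these 5 fell, *Hsp90ab1* (-0.20, adjusted p = 0.0199) and *Cdk7* (-0.19, adjusted p = 0.00656), and *Cdc37* did not pass (-0.01, adjusted p = 0.908). Protein amounts and RB phosphorylation were not measured here.

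**Figure D5:**
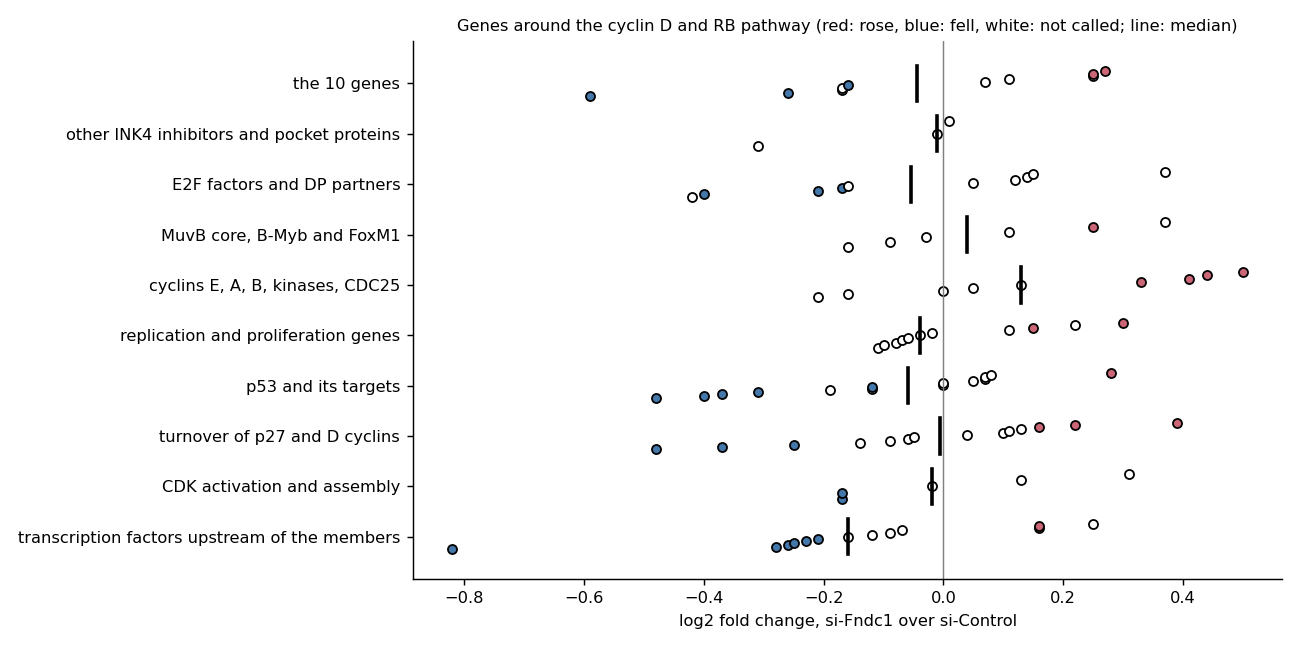
Log2 fold change of si-*Fndc1* over si-Control (horizontal axis) of each tested gene in the 10 genes and the 9 lists around them, with genes that rose in red, that fell in blue and that did not pass in white, and the median of each list as a line. The medians lie between -0.16 (upstream transcription factors) and 0.13 (cyclins E, A and B with their kinases).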

How the data were processed

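Total RNA of C2C12 cells was sequenced in 10 libraries, grouped by their labels. The authors deposited raw counts per gene and, beside each, an FPKM value, scaled to transcript length and library size, with 0.0001 where no read was counted. The methods name TopHat and mm10 with htseq-count, the series text STAR and mm9, and the submitters' processing notes cutadapt 1.9, FastQC and GRCm39. The sources thus disagree, and the annotation, the strand setting and the FPKM tool are not given in the sources used here. Reads shared between overlapping genes could therefore fall to either.

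Counts were tested with edgeR 4.0.16 (quasi-likelihood, TMM) in R 4.3.3 over the 13548 genes whose mean FPKM reached 0.5, with Benjamini-Hochberg adjustment over all of them. DESeq2 1.42.0 and limma 3.58.1 (log2 of FPKM plus 1 or 0.1) were alternatives, with other scalings, filters, a replicate block and each library left out. FPKM of single genes were compared by two-sided exact permutation tests, unadjusted. The GC and length offset was fitted per library with splines of 5 degrees of freedom (0.5 added to counts) for the 82.6% of tested genes with a GC content from transcripts of NCBIM37, matched by identifier. Scripts were tested on simulated data. Python 3.11.15, numpy 2.4.6, pandas 2.3.3 and scipy 1.17.1 were used.

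The 10 genes and the lists were chosen with earlier results of these data known. Named genes are the 10, *Fndc1*, the 3 tested genes with the smallest p in each pathway list, and list genes below the filter. The rule also names the 2 tested genes with a symbol most correlated with each of the 3 of the 10 with the smallest p. A gene that this rule names is not reported here. Marker genes, and neighbours or overlapping genes, were named beside them, the latter after their values were seen. *Pcna* and *Cdk7* were named for their values with the offset.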

Additional observations from a re-analysis of the deposited data

Results flagged for a closer look

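*Ccnd1* in si-*Fndc1* replicate 3 was at 2.85 FPKM, while the other 4 si-*Fndc1* libraries lay at 3.41 to 3.58 FPKM. The gap to its nearest neighbour was 0.757 of the range of the group, above Dixon's limit of 0.71 for 5 samples. It was 1 of 22 groups of 5 examined, and chance flags about 1 in 20.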

How the results depend on the processing

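Over 22 alternative settings, the 10 genes gave 216 log2 fold changes, of which 198 kept their direction and their side of the threshold, 12 kept the direction and lost the call, 5 kept the direction and gained one, and 1 reversed, *Ccnd1* without si-Control replicates 4 and 5 (-0.0035, adjusted p = 0.982). With the GC and length offset, 2 of the 10 genes, 21 of 84 pathway list genes and 2546 of 11185 genes (22.8%) were called. Without it, 5 of the 10 genes, 32 of 85 list genes and 4663 of 13548 genes (34.4%) were called. With the offset and a replicate block, 0 of the 10 genes passed in edgeR (2 had an unadjusted p under 0.05, and DESeq2 without either called 6). In that fit 14 of 84 list genes and 1651 of 11185 genes passed. Leaving out each library in turn gave 5 to 6 of the 10 genes, 28 to 35 list genes and 4000 to 4627 of all genes. The replicate block alone gave 5 of the 10 genes, 25 list genes and 3572 of all genes. Libraries with the same number did not deviate together (correlations -0.0556 to 0.0616, and 1 of 5 si-Control libraries correlated best with its own number), so the numbers were not taken as pairs. *Cdkn1c* had the fewest counts of the 10 genes (59 to 131 per library), and the part of depth in its spread was not tested.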

Other observations

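Of all tested genes with a symbol, *Supt16* had the highest Pearson's r with *Ccnd3* over the 10 libraries (0.973, Spearman's rho 0.855, in log2 CPM). It encodes a subunit of the histone chaperone FACT. *Iffo1*, a nuclear intermediate filament family gene, came next by Pearson's r (0.927) and had a higher rho (0.867). Both were looked up after the *Ccnd3* levels had been seen. *Supt16* was at 96.5 to 106 CPM in si-Control and at 94.3 to 97.5 CPM in si-*Fndc1* (log2 fold change -0.07, adjusted p = 0.126, edgeR), and *Iffo1* was at 109 to 147 CPM and 90.5 to 109 CPM (-0.36, adjusted p = 0.00927).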
